A study of Mus musculus with 24 samples.

Results

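Transcripts of 10 interleukin and colony-stimulating factor genes were followed in ID8 P53 KO cells, a mouse ovarian cancer cell line without p53. The genes were taken by symbol from a table of 25229 genes and were Il1rn, Il18, Il33, Il18bp, Il1rl1, Csf1, Il34, Il15, Il15ra and Il7. They encode cytokines, cytokine receptors and secreted antagonists. RNA was measured in 24 libraries, 6 for each treatment, and 9 of the 10 genes had enough counts to be among the 12941 genes tested, Il7 being the exception. All cells carried the p53 knockout and were treated for 6 days. Controls received the solvent DMSO. A second group received 750 nM cisplatin, a platinum compound that damages DNA and that the study used to induce senescence. The third group received 2.5 µM AU15330, a PROTAC (a compound that marks bound proteins for degradation) directed at SMARCA4. According to the paper it also degrades the related protein SMARCA2, so effects of losing either protein cannot be told apart here. The combination group received both compounds at these concentrations. SMARCA4 is an ATPase of the SWI/SNF complexes, which move nucleosomes. AU15330 acts on protein, so messenger RNA does not check that treatment. The cells were a single cultured line, and the labels do not say whether replicates were separate cultures, so p-values measure the spread between these libraries.

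Interleukins and colony-stimulating factors are the signals by which cells attract, feed and restrain leukocytes. IL-18 and IL-33 belong to the IL-1 family, whose members bind paired receptor chains that signal through MYD88. The family is held in check by inhibitors, among them the IL-1 receptor antagonist and the IL-18 binding protein. IL-15 is presented on the cell surface by its receptor α chain to NK and T cells, and CSF1 and IL-34 are both ligands of CSF1R, the receptor that maintains macrophages. These factors are also part of the mix of secreted proteins that senescent cells release.

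Between 17592588 and 25260009 reads were counted on genes per library. Levels below are CPM, read counts, scaled to a common size by the library's TMM-adjusted total over tested genes, and RPKM where genes are compared with each other, that is CPM per kilobase of exon. Differences are log2 values from edgeR's quasi-likelihood test, with a standard error (SE) and a p-value adjusted by Benjamini-Hochberg over all tested genes, and a gene was called changed at an adjusted p under 0.05. Replicates of a group differed more than lanes of a library did. Markers of the ovarian surface epithelium and mesothelium, the tissue of origin of ID8 cells, summed to 3512 to 5308 CPM in DMSO and to 4174 to 4851 CPM with cisplatin. The same sum was 1018 to 1150 CPM with AU15330 and 1222 to 1403 CPM with the combination, and all 7 markers in the table fell with AU15330. The part of this change in the results below was not tested. Leukocyte markers had at most 5 counts in any library, so the cytokine transcripts below were measured in cultures in which the defining genes of leukocytes were at or near 0. Of 2 endothelial markers, Cdh5 had at most 3 counts in any library, and Pecam1 had 58 to 92 counts in DMSO, 184 to 274 with cisplatin, 5 to 15 with AU15330 and 10 to 21 with the combination. Because bulk RNA was measured, fewer cells expressing a gene and less of its RNA per cell cannot be told apart.

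Per exon length, Csf1 and Il1rn were by far the most abundant of the 10 transcripts in DMSO, at 44.5 ± 4.75 and 26.2 ± 5.82 RPKM (mean ± SD, n = 6). Il15 followed at 6.49 ± 1.79 RPKM and Il34 at 4.19 ± 1.08 RPKM. The other 5 tested genes had mean levels between 0.0317 RPKM (Il1rl1) and 0.545 RPKM (Il15ra), and Il7 had 0 counts in the DMSO libraries. Under AU15330 the order was different, since Il1rn stood at 0.135 ± 0.0781 RPKM while Csf1 stood at 82.9 ± 14.4 RPKM.

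**Figure D1:**
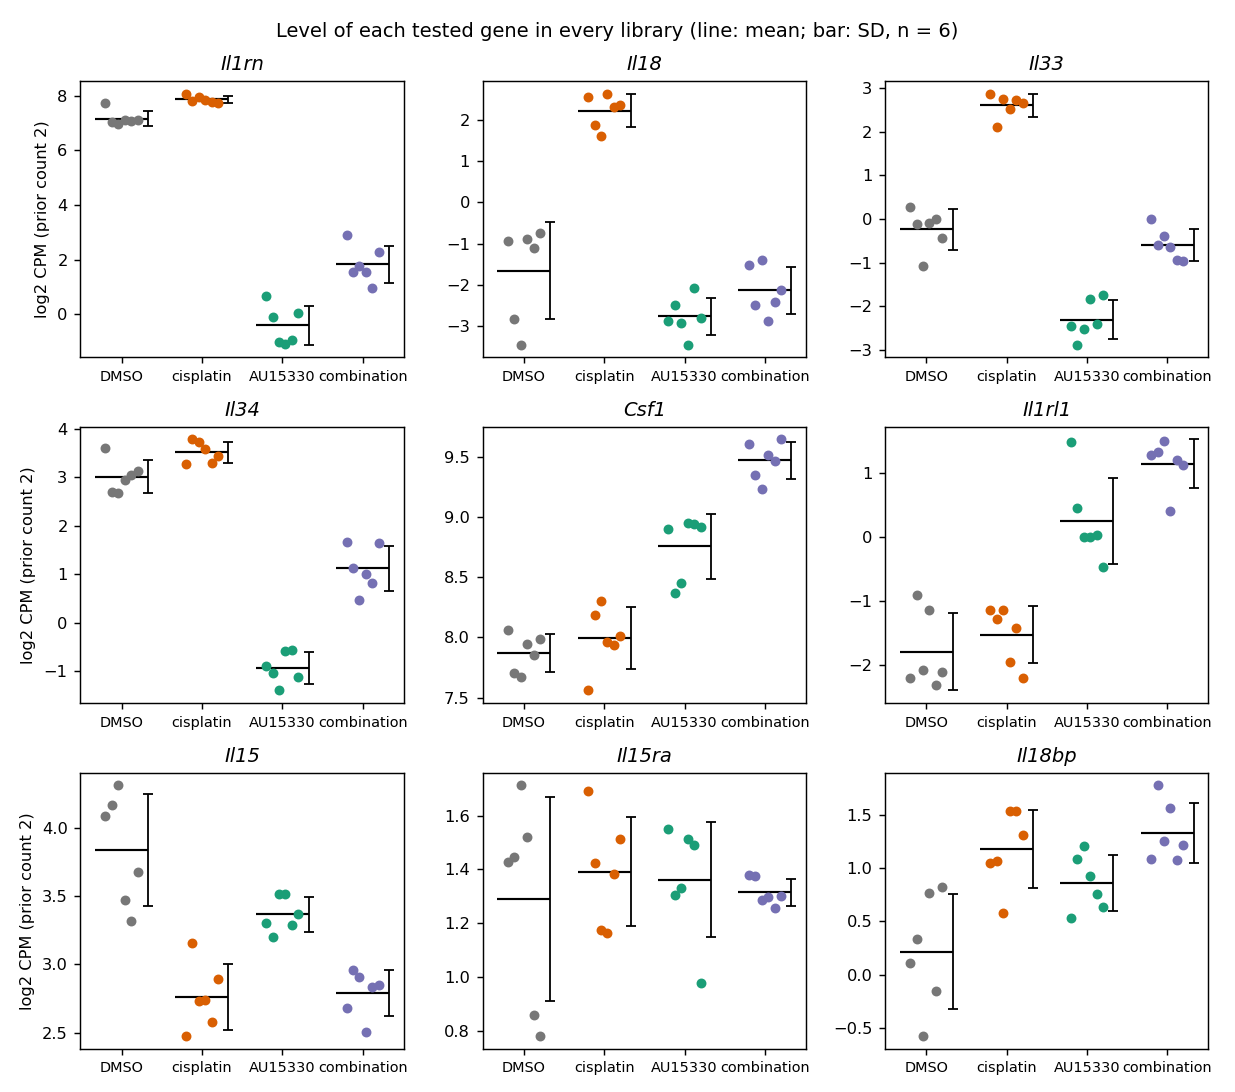
Level of each of the 9 tested genes in every library, as log2 CPM with a prior count of 2 (vertical axis), by treatment (horizontal axis). Points are libraries, lines are means and bars are SDs (n = 6). Il1rn, Il33 and Il34 are lowest with AU15330, Il18 is high with cisplatin alone, and Csf1 is highest with the combination.

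Il1rn changed more with AU15330 than any other of the 9 tested genes. It encodes the IL-1 receptor antagonist, which occupies the IL-1 receptor without activating it. The gene lies at chr2:24336853-24351494, plus strand, of mm10. Its promoter is shown because its transcript changed the most with AU15330. The sequence covers the 250 bases upstream of the most distal RefSeq start (GRCm38.p6, chr2:24336610-24336859, plus strand), with the match to an AP-1 motif in capitals.
Il1rn: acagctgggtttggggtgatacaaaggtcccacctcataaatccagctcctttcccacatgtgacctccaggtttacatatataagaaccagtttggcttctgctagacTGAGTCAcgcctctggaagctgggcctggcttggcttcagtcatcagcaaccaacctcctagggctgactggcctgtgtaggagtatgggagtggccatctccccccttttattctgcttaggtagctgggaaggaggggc
The match, TGAGTCA, began 141 bases upstream of that start. The windows of 2 further RefSeq starts of Il1rn, chr2:24345041-24345290 and chr2:24345121-24345370, held no match to this or another motif searched. Its motif (TGANTCA, searched on both strands) occurred in 6.75% of 32851 mouse promoter windows of the same length, and the same letters lay 30 bases upstream of a start of Il15ra, which was called in no comparison. A match is a description and marks no site of binding.

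In DMSO the Il1rn level was 123 CPM in the lowest library, with a median of 136 and a highest value of 210 CPM. With cisplatin it was 213, 227 and 269 CPM (lowest, median, highest). With AU15330 the 3 values were 0.381, 0.637 and 1.49 CPM, and with the combination 1.87, 3.06 and 7.44 CPM. No 2 of the 4 groups overlapped, and every library with AU15330, with or without cisplatin, held a small fraction of the level in any library without it. AU15330 lowered Il1rn by 193-fold against DMSO (log2 difference −7.59, SE 0.29, adjusted p = 4.78e-18). In the presence of cisplatin it lowered it by 60.3-fold (log2 difference −5.91, SE 0.24, adjusted p = 4.33e-17). Cisplatin alone raised Il1rn 1.60-fold (SE 0.19 on the log2 scale, adjusted p = 0.00397). The combination remained 5.13-fold above AU15330 alone (adjusted p = 1.73e-06). The highest DMSO value, 210 CPM, belonged to replicate 1 and stood apart from the next, 137 CPM. Within that replicate number the difference of cisplatin from DMSO was 0.35 on the log2 scale, against 0.89 in replicates 2 and 3 and 0.69 in replicates 4 to 6, a split of the replicate numbers made after the data were seen.

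Il18 and Il33, the 2 agonists of the family among these genes, were high with cisplatin alone. IL-18 drives interferon γ release by NK and T cells, and IL-33 is a nuclear cytokine set free by damaged cells. Il18 lies at chr9:50554827-50581840 and Il33 at chr19:29925114-29960718, both on the plus strand. Their promoters are shown because both transcripts rose with cisplatin. The RefSeq windows (GRCm38.p6, plus strand) cover chr9:50554450-50554699 for Il18, and chr19:29924863-29925112 and chr19:29945540-29945789 for the distal and proximal starts of Il33, with TATA box letters in capitals.
Il18: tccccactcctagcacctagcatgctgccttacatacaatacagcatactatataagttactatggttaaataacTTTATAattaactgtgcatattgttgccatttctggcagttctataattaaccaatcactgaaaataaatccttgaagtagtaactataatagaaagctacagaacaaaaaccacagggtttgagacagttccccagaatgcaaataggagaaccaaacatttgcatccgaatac
Il33 distal: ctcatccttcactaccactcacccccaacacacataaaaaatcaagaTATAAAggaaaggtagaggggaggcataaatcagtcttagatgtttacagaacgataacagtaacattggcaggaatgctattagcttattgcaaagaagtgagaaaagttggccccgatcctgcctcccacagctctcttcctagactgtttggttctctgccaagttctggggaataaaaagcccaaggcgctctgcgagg
Il33 proximal: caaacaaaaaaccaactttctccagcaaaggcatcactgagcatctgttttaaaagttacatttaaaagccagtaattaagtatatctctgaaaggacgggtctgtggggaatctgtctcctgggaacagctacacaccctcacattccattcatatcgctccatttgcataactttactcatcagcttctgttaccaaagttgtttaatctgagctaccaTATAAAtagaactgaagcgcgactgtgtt
The letters TATAAA were matched on either strand, 175 bases upstream of the RefSeq start of Il18, 203 upstream of the distal start of Il33 and 29 upstream of its proximal start. They occurred in 12.4% of all windows. The Il18 window had a GC content of 35.6% and the distal Il33 window one of 45.2%, against a median of 52.4% over all windows (quartiles 45.2% and 61.2%).

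Il18 had 65 to 148 counts per library with cisplatin (median 122.5), 0 to 11 in DMSO (median 7), 0 to 3 with AU15330 (median 1) and 1 to 6 with the combination (median 2.5). The lowest cisplatin library was thus far above every other library, while the other 3 groups overlapped. Il18 passed the low-count filter through the cisplatin group alone, and with no filter its difference of cisplatin from DMSO was 3.92 (adjusted p = 4.41e-10). Cisplatin raised Il18 15.4-fold over DMSO (log2 difference 3.95, SE 0.37, adjusted p = 1.54e-09). The combination was 29.8-fold below cisplatin (log2 difference −4.90, SE 0.40, adjusted p = 3.42e-11) and was not called different from AU15330 (log2 difference 1.23, SE 0.73, adjusted p = 0.184) or from DMSO (log2 difference −0.95, SE 0.55, adjusted p = 0.119). AU15330 alone lowered Il18 (log2 difference −2.19, SE 0.65, adjusted p = 0.00423), on group totals of 8 and 36 reads. The ratio of these totals put DMSO 4.88-fold higher, with an exact 95% interval of 2.23 to 12.2 that covers counting error only. That difference did not hold in replicates 2 and 3, where it was 0.44 on the log2 scale and where DMSO libraries had 1 and 0 counts.

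The level of Il33 was 4.18, 6.35 and 7.16 CPM with cisplatin (lowest, median, highest). In DMSO it was 0.386, 0.839 and 1.11 CPM. With AU15330 it was 0.0440, 0.0936 and 0.209 CPM, from 1 to 4 counts per library, and with the combination 0.418, 0.558 and 0.908 CPM. Cisplatin libraries lay above all others and AU15330 libraries below all others, whereas DMSO and the combination overlapped. Cisplatin raised Il33 7.70-fold (log2 difference 2.94, SE 0.21, adjusted p = 1.16e-11), and AU15330 lowered it 6.48-fold (log2 difference −2.70, SE 0.34, adjusted p = 7.39e-08). The combination was 10.1-fold below cisplatin (adjusted p = 3.21e-13) and 4.93-fold above AU15330 (adjusted p = 7.80e-06). Against DMSO it was not called changed (log2 difference −0.40, SE 0.25, adjusted p = 0.161).

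The decoy and the receptor of these 2 cytokines behaved differently. Il18bp, which encodes a secreted protein that captures IL-18, had a level of 0.579 to 1.67 CPM in DMSO (median 1.08), 1.40 to 2.81 CPM with cisplatin (median 2.19), 1.35 to 2.22 CPM with AU15330 (median 1.71) and 2.01 to 3.33 CPM with the combination (median 2.27). The groups overlapped, apart from DMSO and the combination. Il18bp rose 1.94-fold with cisplatin (SE 0.23 on the log2 scale, adjusted p = 0.000990), 1.52-fold with AU15330 (SE 0.23, adjusted p = 0.0217) and 2.14-fold with the combination (SE 0.23, adjusted p = 0.000114). The combination was not called different from cisplatin alone (log2 difference 0.14, SE 0.21, adjusted p = 0.564). The call with AU15330 was lost without replicate 2, 3 or 5. Exons of Il18bp (chr7:102014885-102018690, minus strand) share 80 bases, 2.64% of their length, with Numa1 on the opposite strand, and whether strand was used in counting is not given in the sources used here.

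Il1rl1 encodes ST2, the IL-33 receptor chain. It is transcribed as a membrane-bound and as a soluble decoy form, which the counts per gene do not separate. It lies at chr1:40429570-40465415, plus strand, and the promoter of its distal start (RefSeq, GRCm38.p6, chr1:40429320-40429569) is shown as that of a gene that rose where Il33 fell. It held no match to any of the 5 motifs searched and has no capitals.
Il1rl1: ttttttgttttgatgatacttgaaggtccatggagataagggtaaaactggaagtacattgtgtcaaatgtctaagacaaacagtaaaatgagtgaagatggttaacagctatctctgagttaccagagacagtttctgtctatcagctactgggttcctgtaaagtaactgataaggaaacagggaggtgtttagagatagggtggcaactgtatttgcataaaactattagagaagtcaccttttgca
The GC content of this window was 37.6%, below the lower quartile of all windows, with 0 CpG dinucleotides. A second RefSeq start of Il1rl1, with a window at chr1:40439379-40439628, had 46.4% GC and 3 CpG dinucleotides, and no match either. Counts per gene do not show which of these starts was used in these cells.

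Il1rl1 had 2 to 9 counts per library in DMSO (median 3), 3 to 8 with cisplatin (median 7), 12 to 60 with AU15330 (median 20.5) and 27 to 57 with the combination (median 50). Libraries with AU15330 did not overlap those without it. Il1rl1 passed the low-count filter through the groups with AU15330, and with no filter its difference of AU15330 from DMSO was 2.41 (adjusted p = 3.55e-06). The level rose 5.38-fold with AU15330 (log2 difference 2.43, SE 0.39, adjusted p = 4.08e-06) and was 8.01-fold higher with the combination than with cisplatin (log2 difference 3.00, SE 0.35, adjusted p = 3.20e-08). Cisplatin alone gave no call (log2 difference 0.24, SE 0.48, adjusted p = 0.702). The combination was called higher than AU15330 (log2 difference 0.81, SE 0.29, adjusted p = 0.0267), but the groups overlapped: AU15330 replicate 1 stood at 2.70 CPM and the next AU15330 library at 1.28 CPM, both above the lowest combination library at 1.23 CPM. Within replicate number 1 this difference was −0.20, and the call was lost when replicate 2, 3, 5 or 6 was left out (adjusted p = 0.0642, 0.128, 0.0975 and 0.0922) and without the low-count filter (adjusted p = 0.0523).

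**Figure D2:**
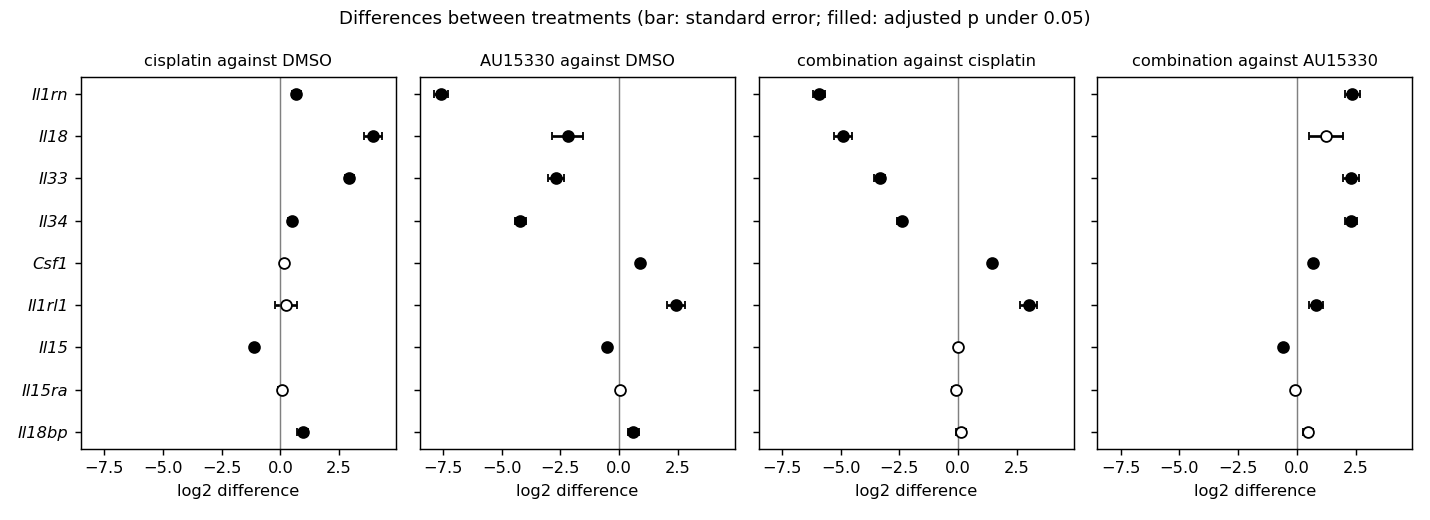
Differences between treatments for the 9 tested genes on the log2 scale (horizontal axes), in 4 comparisons. Points are estimates of edgeR's quasi-likelihood fit, bars are standard errors, and filled points have an adjusted p under 0.05. The Il1rn points of AU15330 against DMSO (−7.59) and of the combination against cisplatin (−5.91) lie farthest from 0.

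The 2 ligands of CSF1R moved in opposite directions under AU15330. Csf1 (chr3:107741048-107760469, minus strand) encodes macrophage colony-stimulating factor, and Il34 (chr8:110741829-110805924, minus strand) encodes an unrelated protein that binds the same receptor. Il34 has no entry in the promoter table used here. The Csf1 promoter (RefSeq, GRCm38.p6, chr3:107760470-107760719, read on the minus strand) is shown because it held a match to the κB motif, in capitals.
Csf1: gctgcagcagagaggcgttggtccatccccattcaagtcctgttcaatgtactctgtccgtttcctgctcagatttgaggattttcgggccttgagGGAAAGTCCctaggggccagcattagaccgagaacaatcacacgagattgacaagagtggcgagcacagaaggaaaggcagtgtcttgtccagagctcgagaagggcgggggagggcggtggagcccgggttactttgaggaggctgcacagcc
The match, GGAAAGTCC, began 154 bases upstream of the start. The motif searched, GGANTTTCC on either strand, occurred in 1.07% of all windows.

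The level of Csf1 was 203, 238 and 267 CPM in DMSO (lowest, median, highest). It was 188, 254 and 316 CPM with cisplatin. With AU15330 it was 331, 479.5 and 495 CPM, and with the combination 602, 719 and 800 CPM. DMSO and cisplatin overlapped, and both lay below AU15330, which lay below the combination. Csf1 rose 1.87-fold with AU15330 (log2 difference 0.90, SE 0.12, adjusted p = 1.46e-07). The combination was 2.76-fold above cisplatin (log2 difference 1.46, SE 0.12, adjusted p = 2.76e-11), 1.63-fold above AU15330 (adjusted p = 2.69e-05) and 3.03-fold above DMSO (adjusted p = 3.95e-12). Cisplatin alone gave no call (log2 difference 0.14, SE 0.12, adjusted p = 0.335). Its value was −0.50 within replicate number 1, 0.56 in replicates 2 and 3 and 0.05 in replicates 4 to 6.

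The level of Il34 was 6.27, 7.90 and 12.1 CPM in DMSO and 9.63, 11.3 and 13.7 CPM with cisplatin. It was 0.288, 0.423 and 0.583 CPM with AU15330, from 7 to 12 counts per library, and 1.29, 2.01 and 3.07 CPM with the combination. AU15330 libraries lay below the combination, and both below the overlapping DMSO and cisplatin groups. AU15330 lowered Il34 18.4-fold (log2 difference −4.20, SE 0.23, adjusted p = 1.17e-14), and the combination was 5.24-fold below cisplatin (log2 difference −2.39, SE 0.19, adjusted p = 1.67e-11) and 4.92-fold above AU15330 (adjusted p = 7.30e-08). The rise with cisplatin alone was 1.40-fold (log2 difference 0.49, SE 0.17, adjusted p = 0.0187). It was lost without replicate 2, 3 or 4 (adjusted p = 0.116, 0.0592 and 0.0697), and within replicate number 1 the difference was −0.32. Exons of Il34 share 22 and 75 bases with the antisense genes Gm15894 and Gm15895.

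Per exon length, the ratio of Csf1 to Il34 in a library had a median of 11.4 in DMSO, with a range of 8.20 to 12.1. It was 8.38 (7.26 to 9.34) with cisplatin, 357 (310 to 490) with AU15330 and 128 (94.3 to 173) with the combination. Every library with AU15330, with or without cisplatin, lay above every DMSO and cisplatin library. This ratio was chosen after the values of both genes were seen and is given without a test. The transcript of their receptor, Csf1r, had at most 4 counts in any library.

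**Figure D3:**
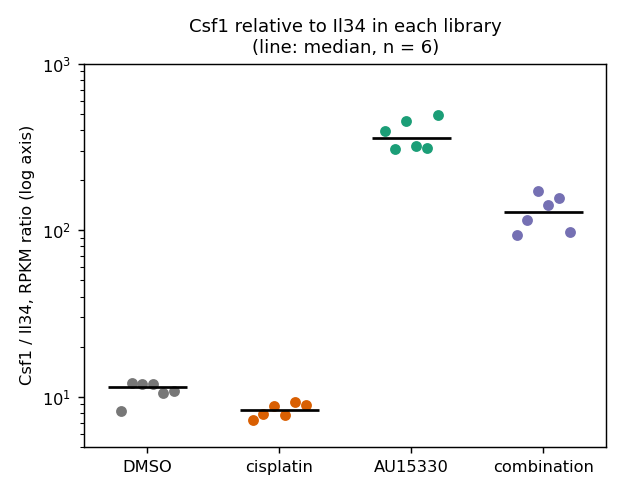
Ratio of the Csf1 level to the Il34 level, both in RPKM, in each library (vertical log axis) by treatment (horizontal axis). Points are libraries and lines are medians (n = 6). The AU15330 libraries lie between 310 and 490 and the combination libraries between 94.3 and 173, above the DMSO and cisplatin libraries, of which the highest is 12.1.

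Il15 was lower in each treatment than in DMSO, while its receptor chain was not called in any comparison. IL-15 supports NK and memory T cells, and Il15ra encodes the chain that carries it to the cell surface. Il15 lies at chr8:82331632-82403222 on the minus strand and has no entry in the promoter table. Its level was 9.86 to 19.7 CPM in DMSO (median 14.8), 5.46 to 8.82 CPM with cisplatin (median 6.56), 9.12 to 11.3 CPM with AU15330 (median 9.999) and 5.59 to 7.68 CPM with the combination (median 7.08). Cisplatin and the combination lay below every DMSO and AU15330 library, and AU15330 overlapped DMSO. Il15 fell 2.17-fold with cisplatin (log2 difference −1.12, SE 0.15, adjusted p = 6.01e-07), 1.43-fold with AU15330 (log2 difference −0.52, SE 0.14, adjusted p = 0.00239) and 2.14-fold with the combination (adjusted p = 2.61e-07). The combination did not differ detectably from cisplatin (log2 difference 0.02, SE 0.15, adjusted p = 0.915). The 3 highest DMSO values were those of replicates 1 to 3, and the AU15330 difference was −0.78 within replicate number 1, −0.88 in replicates 2 and 3 and −0.10 in replicates 4 to 6.

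Il15ra (chr2:11705290-11734317, plus strand) had 32 to 70 counts per library over the DMSO and cisplatin groups and 36 to 63 over the other 2 groups. Mean levels were 2.42 ± 0.617 CPM in DMSO, 2.55 ± 0.373 with cisplatin, 2.50 ± 0.357 with AU15330 and 2.40 ± 0.0860 with the combination (SD, n = 6), and all groups overlapped. The log2 differences between groups ran from −0.09 to 0.07, with SEs of 0.15 to 0.16 and the smallest adjusted p at 0.623. Differences of about the size of these errors could not be detected at this depth.

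Il7, a growth factor of lymphocytes, was close to absent from the counts. Its gene lies at chr3:7569994-7613760, minus strand. It had 0 counts in the 6 DMSO libraries and in the 6 cisplatin libraries, which at 3 counts over a group allows up to 0.0250 and 0.0214 CPM. With AU15330, 3 libraries had 1 count each, and with the combination 2 libraries did. An exact two-sided permutation test over the 924 arrangements of 6 and 6 libraries gave p = 0.182 for AU15330 against DMSO and p = 0.455 for the combination against DMSO (0.545 for both after adjustment over 6 comparisons). With a count in only 3 or 2 libraries, these are the smallest p these counts could give, so the test could not have called Il7. No fold is given, because both groups were at or below 3 counts. Exons of Il7 share 105 bases with the antisense gene Gm16685.

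In cisplatin against DMSO, 5 of the 9 tested genes were called higher and 1 lower, where 26.0% of all tested genes were called higher and 25.7% lower. In AU15330 against DMSO 3 were higher and 5 lower (36.2% and 37.2% of all tested genes). In the combination against cisplatin 2 were higher and 4 lower (35.4% and 32.7%), and against AU15330 5 were higher and 1 lower (22.2% and 19.5%). The combination against DMSO had 3 in each direction (36.8% higher and 36.5% lower). Cisplatin against AU15330 had 4 higher and 3 lower (37.3% and 35.8%). No direction is read from these counts, since 9 genes are few, they were chosen with results known, several counts are close to the background, and Il18 and Il1rl1 passed the low-count filter through the groups in which they were high. Comparisons that use the same group share its libraries. The median log2 difference of the 9 genes was 0.49 in cisplatin against DMSO, −0.52 in AU15330 against DMSO, −0.09 in the combination against cisplatin, 0.81 against AU15330 and −0.40 against DMSO, and 0.35 in cisplatin against AU15330. Over all tested genes these medians lay between 0.00 and 0.04.

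The effect of AU15330 in the presence of cisplatin differed from its effect without cisplatin for 5 of the 9 genes. This interaction was called higher for 4 and lower for 1, against 17.9% and 15.8% of all tested genes. For Il1rn the effect was weaker with cisplatin (−5.91 against −7.59, interaction 1.68, SE 0.38, adjusted p = 0.00129), and likewise for Il34 (−2.39 against −4.20, interaction 1.81, SE 0.31, adjusted p = 6.92e-05). For Csf1 the rise was larger with cisplatin (1.46 against 0.90, interaction 0.56, SE 0.16, adjusted p = 0.00953). For Il18 the fall was larger with cisplatin (−4.90 against −2.19, interaction −2.71, SE 1.01, adjusted p = 0.0396), from very few counts in the AU15330 libraries. With no low-count filter the interaction was −2.73 (adjusted p = 0.0474), and the call was lost without replicate 2, 5 or 6 (adjusted p = 0.114, 0.201 and 0.0622). For Il15 the difference with AU15330 was 0.02 with cisplatin and −0.52 without it (interaction 0.54, SE 0.21, adjusted p = 0.0479), and this call was lost with DESeq2 (adjusted p = 0.0523), with either other scaling, without the low-count filter and without any 1 of replicates 1, 2, 3, 5 and 6. The interaction was not called for Il33 (−0.64, SE 0.49, adjusted p = 0.331), Il1rl1, Il18bp or Il15ra.

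Receptor chains of these cytokines and their partner chains were measured alongside. Of 12 genes on the list, 9 were tested, and 6 rose and 1, Crlf2, fell with cisplatin (26.0% and 25.7% of all tested genes), whereas 3 rose and 5 fell with AU15330 (36.2% and 37.2%). Il18r1, Il2rb and Il7r, with few counts in some groups, passed the low-count filter through the groups in which they were high, so these counts are a description. On the plus strand of chromosome 1, Il1rl1 is followed by Il18r1 (40465552-40500854) and Il18rap (40515362-40551705), and Il1r1 (40225080-40317257) lies upstream of them. With AU15330, Il1rl1 and Il18r1 rose, and Il18rap and Il1r1 fell. Il18r1, the chain that binds IL-18, had 0 to 3 counts per library in DMSO and 24 to 43 with AU15330, and its level was 5.08 higher on the log2 scale (SE 0.44, adjusted p = 1.09e-10). The ratio of its group totals, 207 and 5 reads, was 38.2 (exact 95% counting interval 16.1 to 119). Of the 5 DMSO reads, 3 came from replicate 1. Within replicate number 1 the log2 difference was 2.46, against 3.99 both in replicates 2 and 3 and in replicates 4 to 6. Reads running from the end of Il1rl1 into Il18r1, which starts just beyond it, cannot be told apart from Il18r1 reads in counts per gene. Il18rap, the signalling chain of the same receptor, fell 2.26-fold (SE 0.22 on the log2 scale, adjusted p = 2.53e-05), and Il1r1, the IL-1 receptor that IL1RN occupies, fell 3.58-fold (SE 0.15, adjusted p = 4.15e-11). Il1rap, the chain shared by the IL-1 and IL-33 receptors, rose 4.04-fold with AU15330 (SE 0.12, adjusted p = 1.88e-14). Reads counted on both chains of the IL-33 receptor thus rose with AU15330. With no low-count filter, the Il18r1 difference was 5.06 (adjusted p = 4.31e-11).

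**Figure D4:**
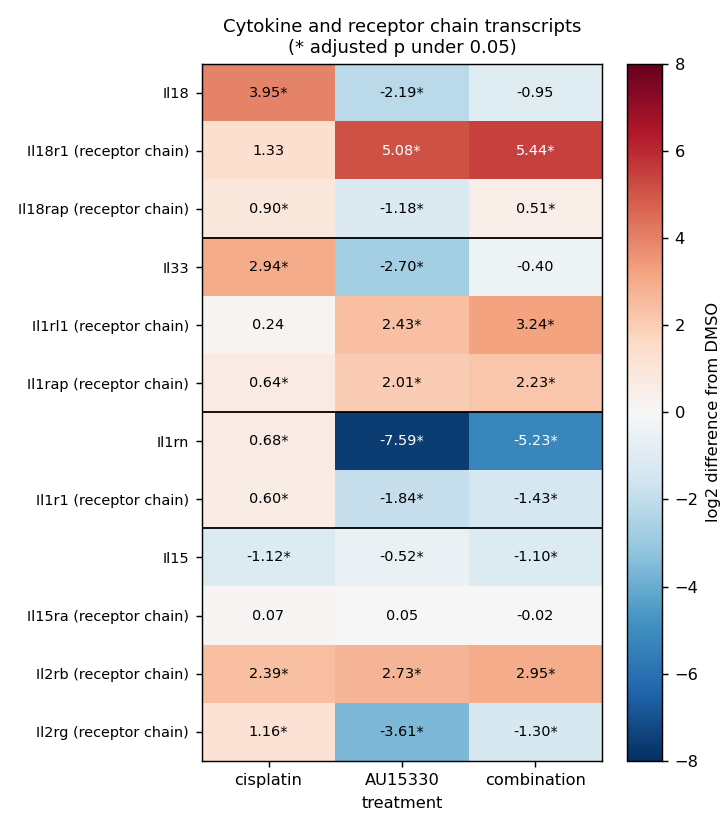
Log2 difference from DMSO (colour and printed value) of cytokine and receptor chain transcripts (rows) in 3 treatments (columns), with an asterisk at an adjusted p under 0.05. Lines separate the IL-18, IL-33, IL-1 and IL-15 systems. With AU15330, Il33 is at −2.70 while its receptor chains Il1rl1 and Il1rap are at 2.43 and 2.01.

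The chains that bind IL-15 and IL-7 also parted. Il2rb, the β chain of the IL-15 receptor, rose 5.23-fold with cisplatin (SE 0.33 on the log2 scale, adjusted p = 1.37e-06) and 6.62-fold with AU15330 (SE 0.33, adjusted p = 3.81e-08), from 1 to 10 counts per library in DMSO. Il2rg, the common γ chain, rose 2.23-fold with cisplatin (SE 0.19, adjusted p = 1.33e-05) and fell 12.2-fold with AU15330 (SE 0.29, adjusted p = 1.92e-11), to 1 to 5 counts per library. Il7r rose 3.78-fold with cisplatin (SE 0.28, adjusted p = 3.11e-06) and fell 8.16-fold with AU15330 (SE 0.48, adjusted p = 3.88e-06), to 0 to 3 counts per library. Crlf2, which pairs with the IL-7 receptor chain to bind TSLP, fell 1.29-fold with cisplatin (SE 0.09, adjusted p = 0.00131) and 1.31-fold with AU15330 (SE 0.09, adjusted p = 0.000460). Sdc1, whose product syndecan-1 also binds IL-34, was not called (log2 difference −0.14 with AU15330, SE 0.11, adjusted p = 0.256).

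Of 14 other ligands of the same families, only the colony-stimulating factors Csf2 and Csf3 had enough counts to be tested. With cisplatin, the log2 difference from DMSO was 3.36 for Csf2 and 1.54 for Csf3, and that of the combination from cisplatin was −2.25 and −2.12. Csf2 had 0 to 3 counts per library in DMSO and 12 to 26 with cisplatin, and Csf3 had 1 to 9 and 14 to 34. Both passed the low-count filter through the cisplatin group, in which they were high, so these values are a description. The agonists that IL1RN opposes were near absent, with Il1a at most at 5 counts and Il1b at most at 1 count in any library.

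Genes that act downstream of the receptors changed in both directions. Of 15 genes of IL-1 family receptor signalling, all tested, 5 rose and 4 fell with cisplatin, 8 rose and 6 fell with AU15330, and 7 were higher and 5 lower with the combination than with cisplatin. The shares of all tested genes were 26.0% and 25.7%, 36.2% and 37.2%, and 35.4% and 32.7% in these comparisons, and several of the counts are close to them. Myd88, the adaptor of these receptors, rose with AU15330 (log2 difference 1.08, adjusted p = 8.92e-12). Irak2, a kinase-like relay, fell (−2.30, adjusted p = 1.35e-18), as did Sigirr, a receptor that dampens the pathway (−2.28, adjusted p = 8.98e-06). Of 10 genes of IL-7 and IL-15 signalling, 1 rose and 3 fell with cisplatin, 4 rose and 5 fell with AU15330, and 5 were higher and 4 lower with the combination than with cisplatin, again close to the shares of all tested genes in several cases. With AU15330 the feedback inhibitor Socs1 rose (2.46, adjusted p = 9.33e-14), and Cish, another one, fell (−1.77, adjusted p = 4.56e-14).

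IL-18 and IL-33 are released from cells through proteases and pores, so genes of these steps were counted as well. Of 14 genes on that list 9 were tested, with 4 higher and 0 lower with cisplatin, 2 higher and 5 lower with AU15330, and 2 higher and 3 lower with the combination than with cisplatin. The background was 26.0% and 25.7%, 36.2% and 37.2%, and 35.4% and 32.7% as above. Casp1, the protease that matures IL-18, was not tested and had 10 reads in all in DMSO, 47 with cisplatin, 5 with AU15330 and 25 with the combination. The adaptor Pycard, which recruits it, had at most 1 count in any library. Gsdmd, whose product forms the release pore, fell with AU15330 (log2 difference −1.12, adjusted p = 1.10e-12) and was not called with cisplatin (−0.04, adjusted p = 0.677).

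The genes whose pattern over the 24 libraries was nearest to that of each tested gene were found among 10900 expressed genes, as the root mean square difference of log2 CPM centred on its mean. A distance is read against the gene's own SD over the libraries, given in brackets. Nearest to Il1rn was Acsbg1 at 0.568 (3.53), to Il34 Tgm2 at 0.311 (1.78), to Il33 Serpinb9b at 0.404 (1.80) and to Csf1 Car12 at 0.214 (0.67). For Il15 it was Kxd1 at 0.184 (0.50), for Il18 Col6a1 at 0.744 (2.05), for Il1rl1 Gla at 0.558 (1.32) and for Il18bp Farp2 at 0.285 (0.55). For Il15ra the nearest, Zdhhc12 at 0.183 (0.22), was almost as far as the gene's whole spread, so it shows no shared pattern. Acsbg1 followed Il1rn in being high without AU15330 and low with it, with mean levels of 174 CPM in DMSO, 165 with cisplatin, 0.533 with AU15330 and 1.96 with the combination.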

How the data were processed

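The authors sequenced polyadenylated RNA as strand-specific single-end libraries and deposited raw read counts per gene symbol, without normalization. The submitters' processing notes name STAR 2.7.1a, DESeq2 1.36.0 and mm10, while the counting tool, the use of strand and the annotation are not given in the sources used here. The labels give 750 nM cisplatin, and the paper's methods give a higher concentration for these cells. The 2 lanes of each library were summed and 0 columns were left unmapped. Lanes of a library differed by a chi-square of 1.36 to 1.46 per degree of freedom, against 2.30 to 122 between replicates. No library was therefore counted as a repeat of another. Repeat libraries of a culture could also exceed the lanes, so this cannot show that replicates were separate cultures. Independent samples may thus be fewer than the libraries tested.

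Counts were tested in R 4.3.3 with edgeR 4.0.16 (TMM scaling, filterByExpr, a quasi-likelihood F test over 24 libraries with 20 residual degrees of freedom, Benjamini-Hochberg over 12941 genes, threshold 0.05). The SE is the log2 difference divided by the square root of F. Il7, below the filter, was tested by exact permutation. Log2 CPM used a prior count of 2, and bounds used 3 counts over a group and cover counting error only. The procedure was tested on simulated data in which a small part of the genes changed, all of them well counted, with independent replicates. Changes in genes with few counts and sets among the replicate numbers were not simulated. Exon lengths and gene positions were taken from GENCODE vM21, and promoter windows from RefSeq (GRCm38.p6, the same assembly as mm10), which matched 7 of the 10 genes in 12 windows, with no entry for Il15, Il34 or Il7. RefSeq starts can differ from the GENCODE gene ends printed, for Il18 and Il18bp by more than the width of a motif, and motif distances are counted from the RefSeq start. The 5 motifs searched on both strands were AP-1 (TGANTCA), an interferon response core (GAAANNGAA), a STAT site (TTCNNNGAA), κB (GGANTTTCC) and TATAAA. Matches of 2 motifs overlapped in none of the 12 windows.

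All 10 genes, and fixed lists of their receptors, related ligands, signalling genes and processing genes, were reported. The rule for named genes took all 10 genes, the 9 receptor chains that pair with them and, for each tested gene, the 1 gene with the nearest pattern and a mean log2 CPM of at least 1. Other genes named from the lists, and the ratio of Csf1 to Il34, were chosen after their values were seen. The members and the lists were chosen with earlier results of these data known. Alternatives were 2 other scalings, no filter, DESeq2 1.42.0, the replicate number as a block, fits of the 2 groups compared, leaving out each replicate number, and, added after the data were seen, a split of replicate numbers into 3 sets (1; 2 and 3; 4 to 6).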

Additional observations from a re-analysis of the deposited data

Results flagged for a closer look

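In 58 groups of 6 libraries, the highest or lowest library was compared with the nearest of the others. In 5 groups that gap took more than the 95% critical share of the group's whole range, where chance gives about 1 in 20 groups, or 2.9. For Il1rn in DMSO, replicate 1 was high (210 CPM, next 137 CPM), and its gap was 0.837 of the range. For Il1rl1 with AU15330, replicate 1 was high (2.70 CPM, next 1.28 CPM), with a gap of 0.686. For Il18rap with AU15330, replicate 1 was high (2.93 CPM, next 1.89 CPM), with a gap of 0.663. Il1r1 with cisplatin had a low replicate 2 (46.8 CPM, next 54.4 CPM, gap 0.706), and Crlf2, the receptor chain of TSLP, had a low replicate 2 with the combination (18.4 CPM, next 24.3 CPM, gap 0.702). Of these 5 libraries, 3 carried replicate number 1.

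The effect of AU15330 with cisplatin differed from that without it, by edgeR's interaction term, for 5 of 9 tested cytokine genes and 5 of 9 tested receptor chains, 10 in all, where 17.9% of all tested genes were called higher and 15.8% lower. Among the cytokine genes the interaction was 1.68 for Il1rn, 1.81 for Il34, 0.56 for Csf1, 0.54 for Il15 and −2.71 for Il18 on the log2 scale. The calls of Il15 and Il18 were lost under several alternatives, as given with their values above. Among receptor chains the interaction was −2.17 for Il2rb (adjusted p = 0.000300), or −2.18 with no low-count filter (adjusted p = 0.000299). It was 1.14 for Il2rg (adjusted p = 0.0214) and 0.79 for Il18rap (adjusted p = 0.0356). For Il1rap it was −0.43 (adjusted p = 0.0367) and for Crlf2 0.50 (adjusted p = 0.00373). The call of Il18rap was lost on library totals, without the filter and without replicate 2, 3, 5 or 6, that of Il1rap without replicate 1, 3 or 5 and that of Il2rg without replicate 2, 5 or 6.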

How the results depend on the processing

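Of 804 log2 differences of the cytokine genes under alternatives, 761 kept their direction and side of the threshold, 23 lost a call, 5 gained one and 15 changed sign. Of 715 such values of receptor chains, 674 kept both, 24 lost a call, 15 gained one and 2 changed sign. The number of genes called was 8 for AU15330 against DMSO (6 to 8 over all alternatives), 6 for cisplatin against DMSO (5 to 6), 6 for the combination against cisplatin (6 to 6), 6 against AU15330 (5 to 7) and 6 against DMSO (6 to 7), and 7 for cisplatin against AU15330 (7 to 8). The interaction had 5 calls, and 3 to 5 when a replicate number was left out. The values that changed sign were not called in either fit. For Il15 in the combination against cisplatin they were −0.0116 with DESeq2 size factors, −0.0113 without the filter, −0.0117 with DESeq2, −0.00594 in the fit of 2 groups and −0.0516, −0.0324 and −0.0292 without replicates 1, 3 and 5 (up to 0.0739 without replicate 2). For Il15ra, the combination against DMSO gave 0.127 on library totals and 0.0925 and 0.0263 without replicates 3 and 4 (down to −0.112 without replicate 6), cisplatin against AU15330 gave −0.0250 on library totals and −0.0685 without replicate 6 (up to 0.0985), cisplatin against DMSO gave −0.00454 and −0.0462 without replicates 5 and 6 (up to 0.237), and AU15330 against DMSO gave −0.0547 without replicate 5 (up to 0.158). Crlf2 in cisplatin against AU15330 gave −0.0376 on library totals and −0.0147 without replicate 1 (up to 0.0521). The cause of these changes was not tested. Scaling by library totals moved the median of all genes by 0.129 in AU15330 against DMSO and by 0.140 in the combination against DMSO. Calls gained were those of Il18bp in the combination against AU15330 (adjusted p = 0.0245 in the fit of 2 groups, 0.0495 with the sets of replicate numbers as a factor, 0.0284 without replicate 3), and, without replicate 3, those of Il18 in the combination against DMSO (−1.47, adjusted p = 0.0125) and of Il18bp in cisplatin against AU15330 (0.55, adjusted p = 0.0208).

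Same-numbered libraries of different groups deviated together only in part (36 pairs, correlation −0.133 to 0.483, mean 0.145, 23 over 0.1, against a mean of −0.0269 and 35 of 180 over 0.1 for pairs of other numbers), and 3 of 24 libraries correlated best with their own number in every group, so the numbers, which the labels tie to nothing shared, were not taken as pairs. With the replicate number as a block, no call of a cytokine gene changed, and the difference of Il1rn between cisplatin and DMSO was 0.71 (adjusted p = 6.83e-05). Among receptor chains the block added the calls of Il2rb (adjusted p = 0.0218) and Il18rap (adjusted p = 0.0190) in the combination against cisplatin. Of 44 called changes, 41 had the same direction in all 3 sets of replicate numbers, with exceptions in Il18, Il34 and Il1rl1. Depth limits Il18, Il33, Il34, Il1rl1 and Il7 most, since some of their groups hold 0 to 12 counts per library.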
